A study of Arabidopsis thaliana with 27 samples.

Results

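The transcripts described here are those most enriched in the inflorescence of wild-type Arabidopsis thaliana over its leaves. They were chosen from the measured values. The 22746 probe sets of an Affymetrix ATH1 array that are not Affymetrix controls were ranked by the smaller of 2 differences, Col-0 inflorescence set A minus Col-0 leaf and Col-0 inflorescence set B minus Col-0 leaf, and the top 200 were taken. Genes of certain families and 8 single genes were left out by the rule, which removed 4 probe sets (SWEET8, PLIM2a, AT59 and AMS) and left 196 of the 22746. Of these, 101 carry 1 gene symbol in the array annotation used here, 6 carry several and 89 carry none, and 8 are probe sets whose probes can match more than 1 transcript.

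Total RNA of 3 mutants and of wild-type Col-0 was measured in rosette leaves (leaves 5 to 8) and in inflorescences (flower stages 1 to 12), on 27 arrays in 9 groups of 3. The inflorescence groups were dcl4-2 and rdr6-15, whose labelled control is Col-0 set A, and dcl1-7, whose labelled control is Col-0 set B. The leaf groups were dcl4-2, rdr6-15 and dcl1-7, which share 1 Col-0 leaf control. Each array is a biological replicate of at least 9 pooled plants, all plants carried the named mutation or none, and no treatment is given in the labels.

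An inflorescence with flowers up to stage 12 holds meristems, sepals, petals, carpels and anthers. Within the anther, the tapetum is the cell layer that surrounds the developing pollen and secretes enzymes, lipids and wall material onto it, and the pollen grain itself later stores proteins and pectin-modifying enzymes that serve the growing pollen tube. DCL1 is the Dicer that makes microRNAs, RDR6 copies RNA into double strands, and DCL4 cuts such double strands into trans-acting and other small interfering RNAs. RDR6 and DCL4 therefore act one after the other in the same route, and DCL1 acts upstream of it through the microRNAs that start it.

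All values are log2 expression. A transcript is said to have risen or fallen where limma's moderated test gave a Benjamini-Hochberg adjusted p under 0.05 over all 22746 probe sets. Differences are those of log2 group means, mutant minus Col-0 or first-named minus second, and the standard error (SE) is that of the fitted model. Because the Col-0 arrays also chose the transcripts, differences between a mutant and Col-0 are given as a description beside the share of all probe sets called. The inflorescence minus leaf difference within a mutant and the difference between dcl4-2 and rdr6-15 are differences of means that hold no Col-0 array, but their SE and test take the spread over all arrays fitted, Col-0 included. Their counts are therefore also given from the 6 arrays of the compared groups alone, an alternative added after seeing the data. In these bulk samples, fewer cells of a type and less RNA per cell cannot be told apart.

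The arrays of a group correlated with each other at r of 0.980 to 0.998 over all probe sets. The 3′ minus 5′ difference of the GAPDH and actin control probe sets, a sign of RNA integrity, was 3.13 to 4.14 on the leaf arrays. It was 1.98 to 2.66 on 12 inflorescence arrays and higher on 3, at 3.62 on dcl4-2 replicate 2, 3.56 on dcl1-7 replicate 3 and 3.47 on Col-0 set B replicate 3. Leaf photosynthesis markers could be measured through RCA, LHCB4.2 and LHCB4.3, whose group means were 11.06 to 13.86 in leaf. Over the inflorescence groups RCA ranged from 13.46 to 13.70 and LHCB4.2 from 12.59 to 13.39. LHCB4.3 was 11.58 in dcl4-2, 11.48 in rdr6-15 and 11.53 in Col-0 set A, and 10.77 in dcl1-7 and 9.96 in Col-0 set B. LHCB4.2 was highest in dcl1-7 and set B, where LHCB4.3 was lowest. Of the floral organ identity genes, 4 (RBE, PTL, AGL24 and UFO) had a probe set with 1 symbol, and none was among the 196.

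The values that chose the transcripts ran from 2.97 to 7.99, with a median of 3.97, so that the least enriched was close to 8 times as abundant in inflorescence as in leaf on the array's scale. The highest named genes were AT1G66850 at 7.77, AT1G68875 at 7.54 and AT5G62080 at 7.18. AT1G66850 and AT5G62080 encode lipid transfer protein-like proteins, a kind that anthers secrete in quantity. The others among the top 10 named were AT3G07820, a polygalacturonase, AT4G04460, an aspartic protease, AT2G47050, a pectin methylesterase inhibitor-like protein, AT3G28980, a protein of unknown function, and AT3G28750, AT3G01240 and AT2G20870. Just inside the limit stood AT3G62710 at 2.99, AT1G44760 at 2.98, AT5G60140 and AT3G62180 at 2.97 and AT1G56220 also at 2.97. Just outside stood AT2G14900 at 2.96, PC1 and GH9A4 at 2.95, AT5G57655 at 2.92 and AT5G26850 at 2.91.

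By what their genes encode, 53 of the 101 could be placed in 11 groups, which were drawn up after the values had been seen. The largest hold 11 pectin enzymes and inhibitors, 7 lipid transfer protein-like proteins, 5 late embryogenesis abundant (LEA)-like proteins, 5 proteins of the DUF1216 family, whose function is unknown, and 5 transcription regulators. The markers AT5G07230 and ATA27 of tapetum secretion and CES of the carpel were among the 196. Another anther gene, SHT, a transferase of pollen coat spermidine conjugates, was not, since it was 9.81 in Col-0 set A but 5.93 in Col-0 set B, near its 5.67 in Col-0 leaf.

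The 101 named genes lay at 101 loci on all 5 chromosomes. Chromosome 5 held 32.7% of them and 22.4% of all named genes of the array, and chromosome 2 held 7.92% and 16.3%. There were 12 with another of these 101 within 10 annotated loci, in 5 groups. Members with several symbols or none were not placed, so neighbours among them were not counted. The largest such group was AT3G28750, AT3G28790, AT3G28830 and AT3G28840 on chromosome 3, of which the last 3 belong to the DUF1216 family. The pectate lyase AT3G01270 lay near AT3G01240 and the pectate lyase AT5G15110 near AT5G15140. The pectin methylesterases AT5G07420 and AT5G07430 lay near each other, and the polygalacturonase AT5G48140 near AT5G48210. The genes were short, with a median length of 1466 bp (413 to 4575 bp) against 2105 bp over the 13286 named loci.

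The enrichment in inflorescence held in all 3 mutants, whose arrays took no part in the choice. In dcl4-2, 195 of 196 were higher in inflorescence than in leaf by limma, beside 31.6% of all probe sets. The median difference was 4.59, with a range of 0.69 to 8.47, against -0.04 over all probe sets. In rdr6-15 all 196 were higher, beside 32.5% of all probe sets, with a median of 4.03 and a range of 0.98 to 7.89. In dcl1-7 all 196 were also higher, beside 31.3% of all probe sets, with a median of 4.14 and a range of 2.20 to 7.95. From the 6 arrays of each mutant alone, the counts were again 195, 196 and 196.

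**Figure D1:**
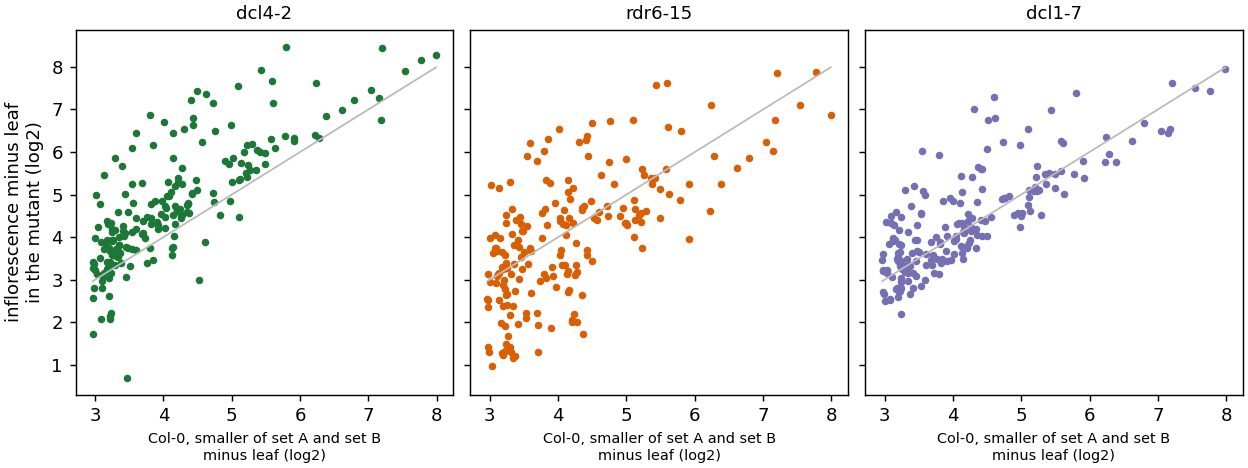
Each point is 1 of the 196 transcripts. The horizontal axis gives the Col-0 difference that chose it (log2, the smaller of the set A and set B differences from leaf), the vertical axis the inflorescence minus leaf difference (log2) in dcl4-2, rdr6-15 or dcl1-7, and the line marks equal values. Nearly all points stand far above 0, and the lowest, AT3G15450 in dcl4-2, stands at 0.69.

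AT1G66850 averaged 13.73 in dcl4-2 inflorescence and 5.58 in dcl4-2 leaf, a difference of 8.15 ± 0.24 (SE, limma adjusted p = 6e-18). It averaged 13.11 in rdr6-15 inflorescence and 5.22 in rdr6-15 leaf, and 13.16 in dcl1-7 inflorescence and 5.73 in dcl1-7 leaf. This lipid transfer protein-like gene was thus near the top of the array's range in every flower sample. The exception in dcl4-2 was AT3G15450, an aluminium-induced-like protein whose transcript is known to accumulate in darkness and on loss of sugar. It averaged 11.54 in dcl4-2 inflorescence and 10.85 in dcl4-2 leaf, a difference of 0.69 ± 0.38 (SE, limma adjusted p = 0.118), against 3.24 in rdr6-15 and 4.29 in dcl1-7. The dcl4-2 leaf mean was itself above the Col-0 leaf mean of 9.665, by 1.185 ± 0.50 (SE). That leaf difference did not pass the test (limma unadjusted p = 0.0351), and the arrays overlapped.

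The median level of the 196 on an array differed between the inflorescence groups. It was 10.52 to 10.69 on the dcl4-2 arrays, 9.69, 9.93 and 10.14 on the rdr6-15 arrays and 10.41 to 10.58 on the Col-0 set A arrays. It was 10.09 to 10.27 on the dcl1-7 arrays and 9.87 to 10.12 on the Col-0 set B arrays. All 12 leaf arrays lay between 5.53 and 5.75. The rdr6-15 arrays therefore lay below all dcl4-2 and all Col-0 set A arrays, and the dcl1-7 and set B arrays overlapped. Among the 5 inflorescence groups, rdr6-15 had the lowest mean for 101 of the 196 (51.5%), and dcl4-2 the highest for 108 (55.1%).

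**Figure D2:**
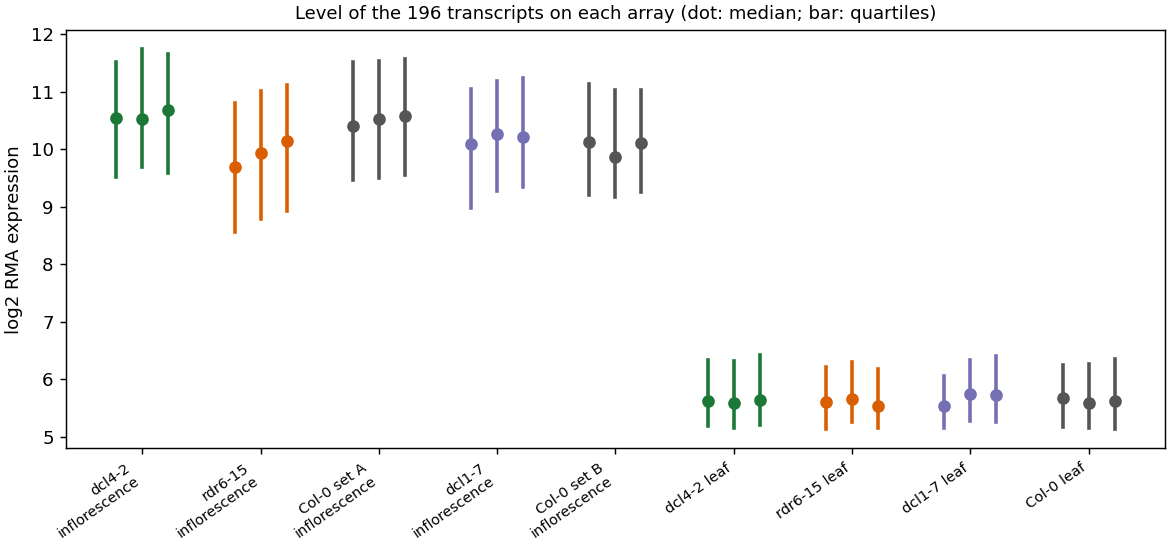
Points give the median log2 expression of the 196 transcripts on each of the 27 arrays and bars the span of the middle 50%, with arrays grouped by genotype and organ. The leaf arrays lie between 5.53 and 5.75, and the rdr6-15 inflorescence arrays, at 9.69 to 10.14, lie below those of dcl4-2 and Col-0 set A.

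In rdr6-15 inflorescences the transcripts were mostly lower. Against Col-0 set A, 89 of 196 fell (45.4%) and 3 rose (1.53%), beside 4.49% and 4.17% of all probe sets. The median difference was -0.48, against 0.02 over all probe sets, and 71 of the 89 fell by at least 2-fold. All 3 rdr6-15 arrays lay below all 3 set A arrays for 119 of the 196, beside 14.6% of all probe sets. Against Col-0 set B, which is not their labelled control, 100 of the rdr6-15 differences were falls and 51 were rises, beside 24.6% and 27.7% of all probe sets. The genes that fell against set A included all 11 of the pectin group, 3 of 5 LEA-like, 4 of 5 DUF1216, 2 of 3 Ole e 1-like pollen proteins and 3 of 4 small cysteine-rich peptides. The 3 that rose carry no gene symbol, and the largest of these rises were 0.47 for 248807_at (limma adjusted p = 0.0288) and 0.47 for 256918_s_at (limma adjusted p = 0.00451).

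The largest fall was that of AT5G39880. It was 6.63, 6.42 and 6.51 on the rdr6-15 arrays, against 9.25, 9.32 and 9.38 on the Col-0 set A arrays, a difference of -2.80 ± 0.28 (SE, limma adjusted p = 0.000153). The groups were far apart, with every rdr6-15 array more than 2 log2 units below every set A array. RALFL25 encodes a peptide of the RALF family, small secreted signals read by receptor kinases. It was 6.37, 6.33 and 6.91 in rdr6-15, against 8.78, 8.76 and 8.92 in set A (difference -2.28 ± 0.30 SE, limma adjusted p = 0.000736). AT5G26700, a cupin-fold protein, was 7.25, 7.30 and 7.66 in rdr6-15, against 9.73, 9.74 and 9.85 in set A. Both genes were lower on all rdr6-15 arrays, and AT5G26700 fell by 2.37 on the log2 scale (limma adjusted p = 4.07e-05). The other large falls were those of AT3G26860 (-2.24), APPB1 (-2.18) and AT3G26110, an arabinogalactan-like protein of anthers (-2.18), with limma adjusted p of 0.00126, 4.07e-05 and 0.000418. Among probe sets without a symbol, 257121_at fell by 2.31 and 264923_s_at by 2.25.

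The 11 pectin genes encode enzymes that cut or demethylate the pectin of cell walls, or proteins like the inhibitors of those enzymes. All fell in rdr6-15, by a median of 1.58 on the log2 scale and by 0.41 to 2.16. The polygalacturonase AT5G48140 was 6.90, 7.16 and 7.47 in rdr6-15, against 9.21, 9.29 and 9.49 in set A (difference -2.16 ± 0.32 SE, limma adjusted p = 0.00134). The polygalacturonase AT3G07820 was 9.91, 10.02 and 10.34 in rdr6-15, against 11.64, 11.65 and 11.71 in set A (difference -1.58 ± 0.21 SE, limma adjusted p = 0.000736). Neither gene's groups overlapped. The pectate lyases AT5G15110 and AT3G01270 fell by 1.87 and 1.43, the pectin methylesterases AT5G07420 and AT5G07430 by 1.59 and 1.52. The inhibitor-like genes AT4G02250, AT1G10770, AT3G62180 and AT2G47050 fell by 1.83, 1.81, 1.52 and 1.42, and AT1G14890, another of this kind, by 0.41.

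The Ole e 1-like, LEA-like and DUF1216 groups had 2 of 3, 3 of 5 and 4 of 5 members among the falls in rdr6-15. Of the Ole e 1-like proteins, relatives of an abundant olive pollen protein, AT5G45880 fell by 1.55 (limma adjusted p = 0.000746) and AT1G29140 by 1.46 (limma adjusted p = 0.000812). The last of this group, AT5G22430, differed by 0.08 (limma adjusted p = 0.823). The LEA-like genes, whose kind accumulates in drying tissues such as seeds and pollen, had falls of 1.32 for AT5G38760, 1.15 for AT3G02480 and 1.11 for AT5G53820. AT2G03740 and AT2G03850 differed by -0.34 and -0.17 and did not pass the test. In the DUF1216 family, AT5G61720, AT3G28830, AT3G28790 and AT3G28980 fell by 1.36, 1.14, 1.13 and 1.07, and AT3G28840 differed by -0.92 (limma adjusted p = 0.0573).

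The lipid transfer protein-like genes and the cuticle genes gave other values in rdr6-15. Only AT1G66850 of the 7 lipid transfer protein-like genes fell, at 13.15, 13.11 and 13.06 in rdr6-15, against 13.49, 13.50 and 13.48 in set A (difference -0.38 ± 0.09 SE, limma adjusted p = 0.0235). The tapetum gene AT5G07230 of this group was 10.08, 11.20 and 11.39 in rdr6-15, against 11.21, 11.54 and 11.11 in set A. Its groups overlapped, and rdr6-15 replicate 1 was low. Of the 4 cuticle and wax genes, 0 were called by limma, and at an unadjusted p under 0.05 none was either. Among these, the GDSL lipase-like gene RXF26 had the largest difference, 0.20 (limma adjusted p = 0.228).

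Among the transcription regulators, the bZIP gene AT1G35490 fell by 1.85 (limma adjusted p = 0.0062) and CES, a bHLH factor of the carpel's transmitting tract, by 0.96 (limma adjusted p = 0.0138). CES was 7.50, 7.18 and 7.59 in rdr6-15, against 8.49, 8.17 and 8.50 in set A, without overlap. Of the 3 measured carpel and ovule markers CES alone fell, beside 4.49% of all probe sets, and 2 were higher (median 0.05). These were SPT, at 7.62 in rdr6-15 and 7.31 in set A, and NGA1, at 7.14 and 7.10. Against set B, 2 of the 3 fell (median -0.88), beside 24.6% of all probe sets. ALC, a bHLH factor of fruit opening, was 9.00, 9.06 and 9.30 in rdr6-15, against 9.27, 9.36 and 9.31 in set A, a difference of -0.19 (limma adjusted p = 0.58). AT5G44300, a dormancy and auxin-associated protein, fell by 1.03 and the thionin THI2.1, an antimicrobial peptide, by 0.98. The defensin-like LCR72 fell by 1.92, and the defensin-like LCR66 differed by -0.20.

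The mature pollen markers that could be measured, ACT11, ACT12 and TUA1, were not among the 196. All 3 fell in rdr6-15 against set A, with a median of -0.64, beside 4.49% of all probe sets. Against set B, 1 rose and 1 fell, with a median of -0.16. In dcl4-2 against set A all 3 were higher, with a median of 0.21, and 0 of 3 were called by limma, with 1 at an unadjusted p under 0.05. Of the 6 measured tapetum secretion markers and the 6 measured anther regulators, 0 rose or fell in rdr6-15 against set A. Their medians were -0.30 and -0.14. Against set B, 6 of the tapetum markers and 2 of the anther regulators rose and 0 fell, beside 27.7% and 24.6% of all probe sets. The medians there were 1.15 and 0.32. The part of these markers in the falls of the 196 was not tested.

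In dcl4-2 inflorescences few of the transcripts were called. Against the same Col-0 set A arrays, 10 of 196 rose (5.1%) and 5 fell (2.55%), beside 1.11% and 0.972% of all probe sets. The 196 leaned upward by a small amount, with 136 higher and a median of 0.15, against -0.01 over all probe sets. All 3 dcl4-2 arrays lay above all 3 set A arrays for 50 of them, beside 11.2% of all probe sets. Of the 6 measured tapetum secretion markers, 5 were higher and 2 rose in dcl4-2 against set A (median 0.31), and of the 3 leaf markers 1 fell. The 3 mature pollen markers were also all higher (median 0.21), with 0 called. The anther regulators and SHT did not lean upward. Of the 6 measured anther regulators, 1 was higher (median -0.21) and 0 rose or fell, and SHT differed by 0.002. The part of these markers in the lean of the 196 was not tested. Against Col-0 set B, which is not its labelled control, 94 of the 196 rose and 21 fell, beside 26.6% and 23.7% of all probe sets. All 6 tapetum secretion markers and 3 of the 6 anther regulators rose against set B, and SHT differed by 3.89. The count against set A rests on each array of this comparison. In place of 15, the number called was 7 without set A replicate 1, 8 without set A replicate 2, 7 without set A replicate 3, 9 without dcl4-2 replicate 1, 7 without dcl4-2 replicate 2 and 10 without dcl4-2 replicate 3.

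The clearest fall in dcl4-2 was that of AT3G15450. It was 11.55, 11.24 and 11.83 in dcl4-2, against 13.15, 13.05 and 13.21 in set A, a difference of -1.60 ± 0.12 (SE, limma adjusted p = 0.000119). All dcl4-2 arrays lay well below all set A arrays. Against their labelled controls, the other mutants did not pass the test for this low-energy gene (rdr6-15 -0.03 against set A, dcl1-7 -0.21 against set B). Against the other Col-0 set they did, with rdr6-15 at -1.04 from set B and dcl1-7 at 0.80 from set A. The probe set 245668_at, which has no symbol, was 9.53, 9.15 and 9.25 in dcl4-2, against 10.23, 10.64 and 10.57 in set A (difference -1.17 ± 0.11 SE, limma adjusted p = 0.00057). AT1G14890, the pectin methylesterase inhibitor-like gene that also fell least in rdr6-15, was 9.61, 9.61 and 9.70 in dcl4-2, against 10.41, 10.04 and 10.35 in set A (difference -0.63 ± 0.09 SE, limma adjusted p = 0.0063). The remaining named falls were those of AT1G30820, a CTP synthase, by 0.52 (limma adjusted p = 0.00748), and AT4G14270, a protein with a motif that binds poly(A)-binding protein, by 0.52 (limma adjusted p = 0.00879). Both missed the threshold with all 27 arrays in 1 fit (adjusted p = 0.39 and 0.354).

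Of the 10 rises in dcl4-2, 5 carry a symbol. AT1G23240, a caleosin of oil bodies, rose by 0.82 and AT4G23680, a major latex protein-like gene, by 0.69, with limma adjusted p of 0.0396 and 0.0169. The other 3 were of the cuticle and wax group of 4. AT1G02190, a relative of the alkane-forming CER1, rose by 0.65 (limma adjusted p = 0.0439), the wax ester synthase WSD1 by 0.42 (limma adjusted p = 0.0255) and RXF26 by 0.40 (limma adjusted p = 0.043). Each of the 5 missed the threshold when certain single arrays were left out. For AT1G02190 these were all 6 arrays (adjusted p 0.0573 to 0.156), for AT1G23240 all but dcl4-2 replicate 3 (0.0689 to 0.15) and for RXF26 all but set A replicate 2 (0.0807 to 0.167). For WSD1 they were set A replicates 2 and 3 and dcl4-2 replicates 2 and 3 (0.0515 to 0.113), and for AT4G23680 all 3 of set A and dcl4-2 replicate 2 (0.0602 to 0.0802). Of the 11 pectin genes, 9 were higher and 2 lower than in set A, and AT1G14890 alone passed the test. Of the 7 lipid transfer protein-like genes, 6 were lower, with a median of -0.51 and 0 called by limma (2 at an unadjusted p under 0.05). AT5G52160 had the lowest value among these, -1.01 with an SE of 0.58.

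**Figure D3:**
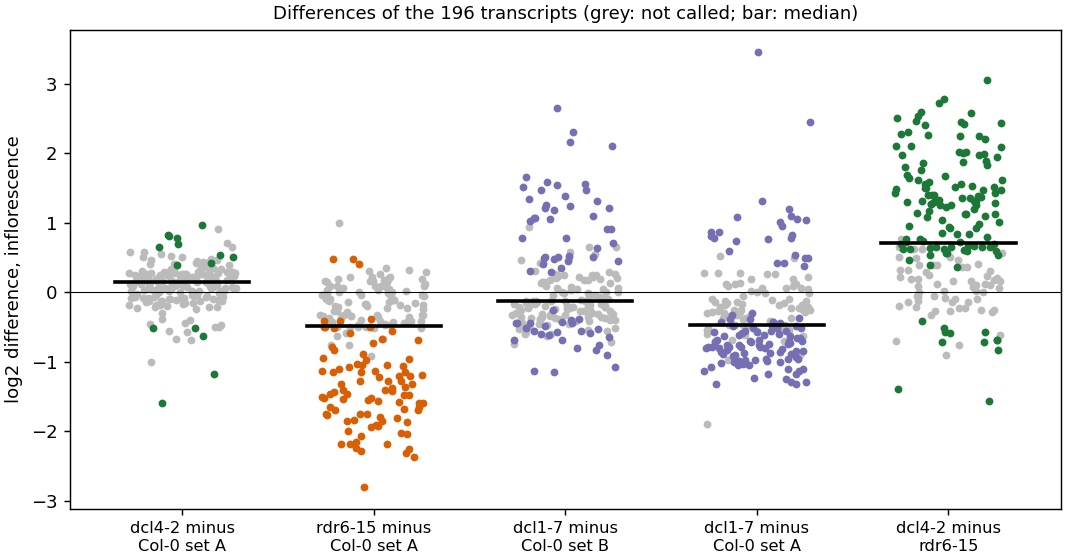
Each point is the log2 difference of 1 of the 196 transcripts in 1 inflorescence comparison, dcl4-2 minus Col-0 set A, rdr6-15 minus set A, dcl1-7 minus set B, dcl1-7 minus set A and dcl4-2 minus rdr6-15. Grey points did not pass the test, and bars mark the medians, which are 0.15, -0.48, -0.13, -0.47 and 0.71.

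The difference between the dcl4-2 and rdr6-15 inflorescence means holds no Col-0 array. By limma over all 15 inflorescence arrays, 118 of 196 were higher in dcl4-2 (60.2%) and 12 were lower (6.12%), beside 8.02% and 7.42% of all probe sets. From the 6 arrays of these mutants alone, 109 were higher and 10 lower, beside 6.65% and 5.14% of all probe sets. The median difference, dcl4-2 minus rdr6-15, was 0.71, and 82 were higher by at least 2-fold. All 3 dcl4-2 arrays lay above all 3 rdr6-15 arrays for 126 of the 196, beside 14.2% of all probe sets. With any 1 of the 6 arrays left out, 60.2% to 64.3% of the 196 were called in either direction, against 66.3% with all arrays and 15.4% of all probe sets.

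AT5G39880 was 9.28, 9.79 and 9.65 in dcl4-2, against 6.63, 6.42 and 6.51 in rdr6-15 (difference 3.05 ± 0.28 SE, limma adjusted p = 4.43e-05). RALFL25 was 8.92, 9.45 and 9.42 in dcl4-2, against 6.37, 6.33 and 6.91 in rdr6-15 (difference 2.72 ± 0.30 SE, limma adjusted p = 0.000112). The groups of both genes stood apart by about 2 log2 units or more. AT3G26860, AT5G26700, AT5G48140 and APPB1 were higher by 2.59, 2.54, 2.50 and 2.45. Of the pectin group, 10 of 11 were higher in dcl4-2, with a group median of 1.68, and AT1G14890 differed by -0.22 (limma adjusted p = 0.152). All 5 LEA-like genes were higher, by 0.64 to 1.32, and so were 4 of 5 DUF1216 genes and 4 of 5 regulators, CES by 1.47 and ALC by 0.65 among them. Of the peroxidases, AT5G47000 was higher (limma adjusted p = 0.000285), and the other two did not pass the test.

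The 12 that were lower in dcl4-2 than in rdr6-15 were led by AT3G15450 at -1.57 ± 0.12 (SE, limma adjusted p = 2.27e-05). It was 11.55, 11.24 and 11.83 in dcl4-2, against 13.17, 13.17 and 12.99 in rdr6-15, with no overlap. The lipid transfer protein-like gene AT1G62500 was 10.17, 9.99 and 10.25 in dcl4-2, against 10.95, 11.11 and 10.85 in rdr6-15 (difference -0.83 ± 0.18 SE, limma adjusted p = 0.00727). AT5G47600 was lower by -0.72, AT1G56220, a dormancy and auxin-associated protein, by -0.71, AT1G30820 by -0.68 and AT4G14270 by -0.52. AT1G56220 missed the threshold without any 1 of dcl4-2 replicates 1 and 2 and rdr6-15 replicates 1, 2 and 3 (adjusted p 0.0731, 0.158, 0.0852, 0.105 and 0.126). Both also missed it in the fit of the 6 arrays alone (adjusted p = 0.0659 for AT1G56220 and 0.0801 for AT5G47600). AT5G47600 missed it without dcl4-2 replicate 1 or 3 or rdr6-15 replicate 2 or 3 (adjusted p 0.0582, 0.0901, 0.0961 and 0.0764). The dormancy and auxin-associated genes thus lay on opposite sides, since AT5G44300 was higher in dcl4-2 (limma adjusted p = 0.000237).

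**Figure D4:**
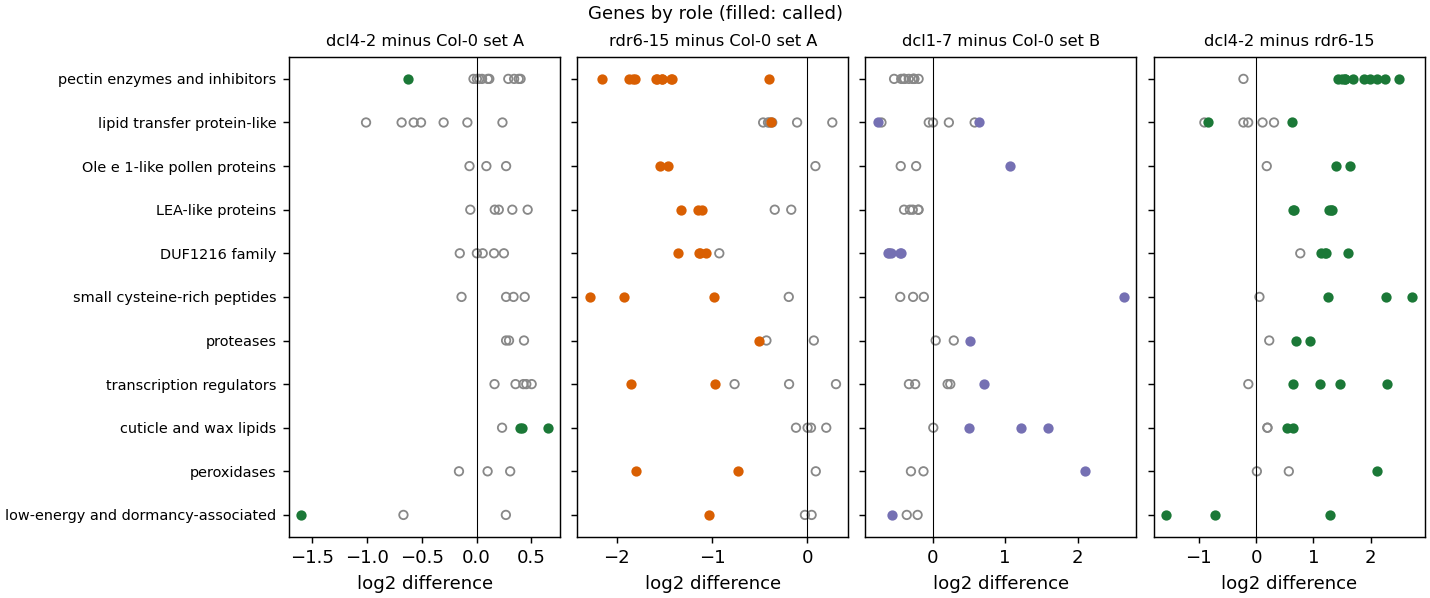
Points give the log2 difference of each gene of the 11 role groups (rows) in 4 inflorescence comparisons (panels). Filled points passed the test. In rdr6-15 minus Col-0 set A all 11 pectin genes are filled and below 0, and in dcl4-2 minus rdr6-15 10 of them are filled and above 0.

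In dcl1-7 inflorescences the transcripts changed in both directions against the labelled control, Col-0 set B. By limma 42 of 196 rose (21.4%) and 27 fell (13.8%), beside 12.6% and 10.8% of all probe sets, with a median of -0.13. There were 24 rises and 3 falls of at least 2-fold. These counts depend on which Col-0 arrays stand in the comparison and in the choice. Against Col-0 set A, 25 rose (12.8%) and 88 fell (44.9%), beside 17.2% and 18.1% of all probe sets, with a median of -0.47. When the transcripts were ranked by set A alone, 86 of 199 rose and 18 fell in dcl1-7 against set B, and the median was 0.25. Both sets are wild-type inflorescence in the labels. The set A mean was above the set B mean for 143 of the 196, by a median of 0.34 and over a range of -3.97 to 3.03.

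Over both controls, 12 of the 196 fell in dcl1-7 against each set and 9 rose against each. A further 22 rose against set B and fell against set A, and 6 did the opposite. These joint counts were taken over the 196 only. Without a share of all probe sets beside them, they do not set the 196 apart from the array as a whole. The dcl1-7 arrays lay below all 6 Col-0 inflorescence arrays for 16 transcripts and above all 6 for 11, beside 2.18% and 2.84% of all probe sets. For rdr6-15 the same counts were 84 below and 7 above (8.9% and 12.9% of all probe sets), and for dcl4-2 10 below and 36 above (4.76% and 6.11% of all probe sets).

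The largest rise in dcl1-7 was that of THI2.1. It was 11.78, 11.93 and 12.01 in dcl1-7, against 9.38, 8.91 and 9.50 in set B, a difference of 2.64 ± 0.14 (SE, limma adjusted p = 5.46e-08). On the set A arrays it was 12.36, 12.26 and 12.25, so that dcl1-7 lay between the Col-0 sets and the difference from set A was -0.38. The same held for ATA27, a beta-glucosidase made in the tapetum. ATA27 was 11.12, 11.62 and 11.52 in dcl1-7, against 9.63, 9.63 and 10.36 in set B (difference 1.55 ± 0.20 SE, limma adjusted p = 0.00012), and 12.75, 12.53 and 12.68 in set A (difference -1.23). RXF26 was 10.31, 10.27 and 10.15 in dcl1-7, against 8.71, 8.55 and 8.70 in set B and 10.87, 11.23 and 11.15 in set A. For these genes the dcl1-7 arrays stood above all set B arrays and below all set A arrays.

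The other large named rises against set B were those of the peroxidase AT1G44970 (10.53 in dcl1-7, 8.43 in set B), the sesquiterpene synthase AT5G44630 (difference 1.56) and AT4G23680 (difference 1.47), and against set A these 3 differed by -0.71, -0.16 and -0.18. The Ole e 1-like AT5G22430 rose by 1.06 against set B and fell by 0.66 against set A. In the cuticle and wax group, 3 of 4 rose against set B, namely RXF26, AT5G33370 and WSD1. Against set A, 3 of the 4 fell, by 1.05 for AT5G33370, 0.84 for RXF26 and 0.43 for AT1G02190, and WSD1 alone rose. WSD1 was 10.17, 10.14 and 10.34 in dcl1-7, against 9.74, 9.59 and 9.80 in set B and 9.91, 9.76 and 9.74 in set A, above all 6 Col-0 arrays. It rose by 0.51 against set B (limma adjusted p = 0.000845) and by 0.41 against set A (limma adjusted p = 0.00203). CES rose against both sets too, by 0.71 and 0.82 (limma adjusted p = 0.0275 and 0.00874). Of the 3 measured carpel and ovule markers, CES among them, 1 rose and 1 fell against set B (median 0.13). All probe sets had 12.6% and 10.8% there. Against set A, 2 of the 3 rose (median 0.77), beside 17.2% of all probe sets.

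The named falls in dcl1-7 against set B were smaller. AT1G02813 fell by 1.15, AT1G24600 by 1.13 and AT1G16705 by 0.81, but against set A these 3 differed by 0.12, 0.52 and 0.27. AT4G37900 was 10.18, 10.30 and 10.12 in dcl1-7, against 10.87, 10.89 and 11.32 in set B (difference -0.83 ± 0.14 SE, limma adjusted p = 0.00108). On the set A arrays it was 11.09, 11.05 and 11.10, so dcl1-7 lay below all 6 Col-0 arrays. AT5G62080, 1 of the most enriched lipid transfer protein-like genes, was 11.59, 11.69 and 11.27 in dcl1-7, against 12.09, 12.31 and 12.43 in set B (difference -0.76 ± 0.20 SE, limma adjusted p = 0.016), and 12.06, 12.36 and 11.84 in set A (difference -0.57, limma adjusted p = 0.0453). AT4G14270 fell by 0.64 against set B (limma adjusted p = 0.000149) but was higher than in set A by 1.09. Against set B, AT5G62080 missed the threshold without set B replicate 2 or dcl1-7 replicate 3 (adjusted p = 0.0519 and 0.0617). AT1G16705 missed it without set B replicate 3 or dcl1-7 replicate 1 or 2 (adjusted p = 0.0716, 0.0878 and 0.0501), and AT1G02813 without the 3 arrays of high 3′ minus 5′ difference (adjusted p = 0.0622).

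The DUF1216 family was lower in dcl1-7 under both controls, with 4 of 5 falling against set B (median -0.57) and 5 of 5 against set A (median -1.01). AT3G28790 was 10.34, 10.60 and 10.49 in dcl1-7, against 11.04, 10.79 and 10.91 in set B (difference -0.44 ± 0.13 SE, limma adjusted p = 0.0245) and 11.52, 11.52 and 11.91 in set A. AT3G28980 was 10.56, 10.79 and 10.96 in dcl1-7, against 11.50, 11.21 and 11.44 in set B (difference -0.61 ± 0.15 SE, limma adjusted p = 0.00806) and 11.65, 11.71 and 11.98 in set A. Neither overlapped with either control. The 11 pectin genes were all lower than in set B, with a median of -0.33 and 0 called by limma (2 at an unadjusted p under 0.05). Against set A, 5 of the 11 fell and AT1G14890 rose by 1.06. The 5 LEA-like genes were likewise all lower than in set B with 0 called by limma or at an unadjusted p under 0.05, and all 5 fell against set A.

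Beside THI2.1 and ATA27, the Col-0 sets stood far apart for some probe sets without a symbol. The probe set 252415_at was 13.45, 13.64 and 13.59 in dcl1-7, against 14.01, 14.10 and 14.11 in set B, and 9.83, 10.05 and 10.44 in set A. It fell in dcl1-7 by 0.51 against set B and was higher by 3.45 than in set A. The probe set 245668_at, which fell in dcl4-2, averaged 12.92 in dcl1-7, 13.32 in set B and 10.48 in set A. Of the 6 measured tapetum secretion markers, 2 were among the 196. In dcl1-7, 5 of the 6 rose against set B (median 0.97) and 5 fell against set A (median -0.66). These counts stand beside 12.6% and 18.1% of all probe sets. Of the 6 measured anther regulators, 0 rose or fell against set B (median 0.08) and 4 fell against set A (median -0.38). The part of these markers in the counts of the 196 was not tested.

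**Figure D5:**
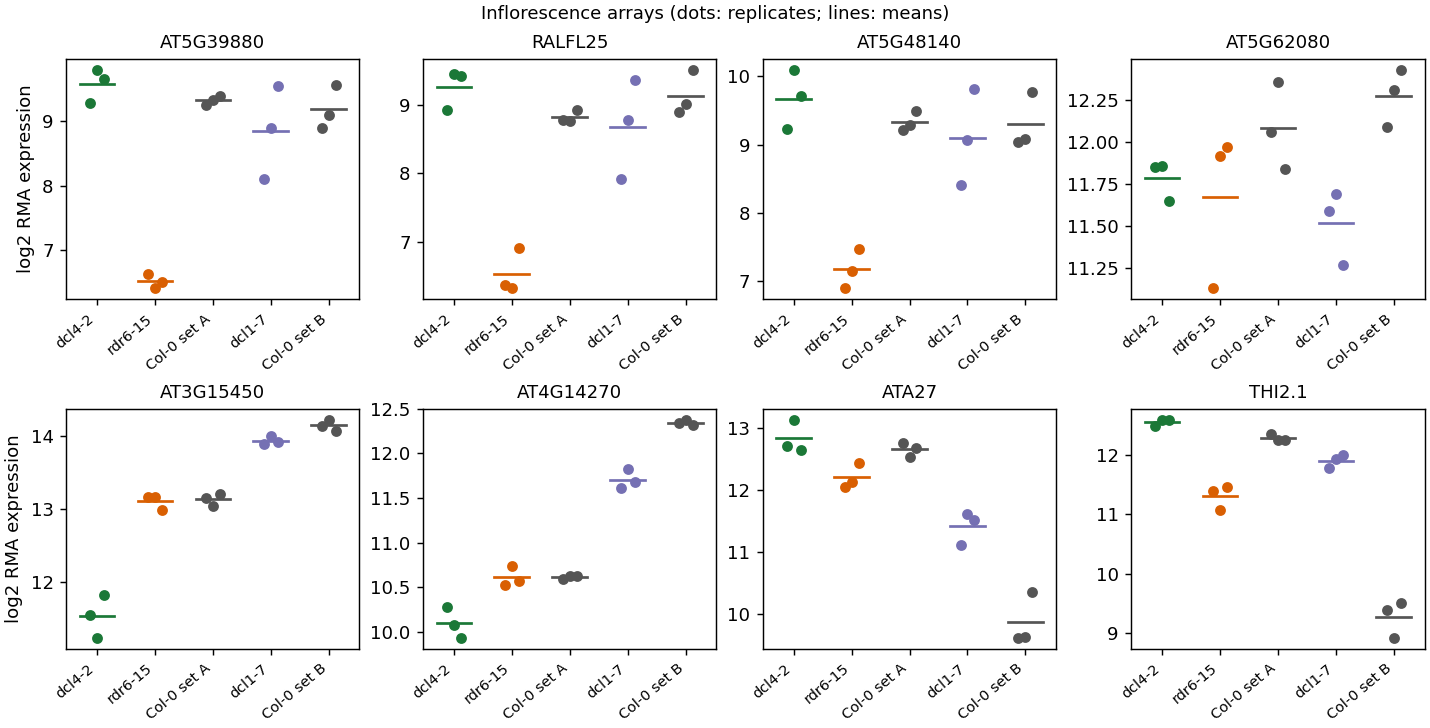
Log2 expression of 8 genes on the 15 inflorescence arrays, 1 point per array, with the groups dcl4-2, rdr6-15, Col-0 set A, dcl1-7 and Col-0 set B along the horizontal axis. AT5G39880, RALFL25 and AT5G48140 are low in rdr6-15, AT3G15450 is low in dcl4-2, and THI2.1 and ATA27 in dcl1-7 lie between the Col-0 sets.

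In leaves the transcripts were near the low end of the array's range, with group medians of 5.61 to 5.73, and few differed between a mutant and Col-0. In dcl4-2 leaves, 0 of 196 were called by limma, beside 0% of all probe sets. An unadjusted p under 0.05 was reached by 19 of the 196, beside 652 of all 22746 probe sets. In rdr6-15 leaves, 0 of 196 were called, beside 0.0176% of all probe sets. Here 9 of the 196 had an unadjusted p under 0.05, beside 773 of all 22746 probe sets. In dcl1-7 leaves 3 rose and 7 fell (5.1% in all), beside 9.42% of all probe sets. That total of 10 became 5 when Col-0 leaf replicate 2 was left out. It became 6 without replicate 2 of dcl1-7 leaf, and 17 without replicate 1 of it.

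WSD1 was 5.16, 4.95 and 4.97 in dcl1-7 leaf, against 6.61, 6.11 and 6.12 in Col-0 leaf, a difference of -1.26 ± 0.19 (SE, limma adjusted p = 0.00229), without overlap. ARPN encodes plantacyanin, a small copper protein, and the microRNA that targets it is made by DCL1. It was 7.72, 7.83 and 8.24 in dcl1-7 leaf, against 6.69, 7.31 and 7.37 in Col-0 leaf (difference 0.81 ± 0.21 SE, limma adjusted p = 0.0337). The subtilase AT4G21650 fell by 0.76 (limma adjusted p = 0.0311) and AT3G28500, a ribosomal P2 protein, by 0.67 (limma adjusted p = 0.0467). The probe sets 258675_at and 245688_at, which have no symbol, fell by 1.37 and 1.01. ARPN and AT4G21650 missed the threshold without Col-0 leaf replicate 1 (adjusted p = 0.128 and 0.119) or 2 (0.0594 and 0.123), or without dcl1-7 leaf replicate 2 (0.0721 and 0.108) or 3 (0.133 and 0.119). AT3G28500 missed it when any 1 of the 6 arrays was left out, with adjusted p of 0.0546 to 0.168.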

How the data were processed

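RNA of 27 leaf and inflorescence samples was measured on ATH1 arrays. The values the authors deposited are log2 expression, 1 value for each probe set on each array, computed by RMA per the submitters' processing notes. Its version and the set of arrays normalized in 1 run are not stated there. RMA equalizes the arrays and compresses differences of weak transcripts, so leaf differences may be understated.

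In R 4.3.3, limma 3.58.1 (functions lmFit and eBayes) was used to fit group means to all 22746 probe sets other than the 64 controls, once for the 12 leaf arrays, once for the 15 inflorescence arrays and over all 27 for organ differences. Two-sided p-values were adjusted by Benjamini-Hochberg over the 22746 and called at 0.05. The fit was tested on simulated data. No filter on low signal was applied. Arrays have no read depth, and their number limits the precision.

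The transcripts, the marker lists and the tests were chosen with earlier results of these data known, and the role groups after the values were seen. Named genes are, among those with 1 symbol, the 10 of largest rule value, the 5 on either side of the limit, the 6 largest called differences per direction and comparison (all 3 mutant arrays outside the range of the 3 Col-0 arrays), and listed markers. Members of the role groups were added to these. Unnamed probe sets are given by ID. Symbols come from the platform annotation, and locus order and lengths from a RefSeq table of TAIR10.1. No coordinates or sequences were used here. Families by product text and promoter motifs were planned but not analysed here. Alternatives were another control set, all arrays in 1 fit, array weights, centring, a filter on weak probe sets, other rankings and list sizes, and leaving out single arrays. Leaving out the 3 inflorescence arrays with a 3′ minus 5′ difference above 3, and fits of the 2 compared groups alone, were added after seeing the data.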

Additional observations from a re-analysis of the deposited data

Results flagged for a closer look

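Between dcl4-2 and rdr6-15 inflorescences, which share the control set A, 118 of the 196 transcripts were higher in dcl4-2 by limma's test of the difference itself.

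For some genes, all 3 mutant arrays lay outside the range of the labelled Col-0 control in opposite directions in the organs. The 5 described next are not all of them. Among the others in dcl4-2 were AT1G56220 (-0.67 in inflorescence, 0.57 in leaf) and ALC (0.45 and -0.30). Further examples were AT3G07450 (-0.51 and 0.20) and LCR72 (0.34 and -0.20) in dcl4-2, and AT3G13510 (0.45 and -0.32) in dcl1-7. No share of all probe sets stands beside this pattern, so it does not set these genes apart from the array as a whole. AT1G14890 in dcl4-2 differed from Col-0 by -0.63 in inflorescence and by 0.45 in leaf. In dcl1-7 against set B, AT4G21650 differed by 0.51 in inflorescence and by -0.76 in leaf, WSD1 by 0.51 and -1.26, AT3G28500 by 0.29 and -0.67, and AT4G14270 by -0.64 and 0.89. Against set A the inflorescence differences of AT3G28500 (-0.43) and AT4G14270 (1.09) had the sign of the leaf difference, and those of AT4G21650 (0.22) and WSD1 (0.41) did not. The difference between the organs was not tested, because it contains the Col-0 organ difference that chose the transcripts. Dixon's test for a single array that stands apart was not run, since each group holds 3 arrays.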

How the results depend on the processing

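The share of the 196 called in dcl4-2 against Col-0 set A was 7.65%, and it moved to 3.57% with all 27 arrays in 1 fit, 13.8% with array weights, 58.7% with set B as control and 3.57% to 5.1% with single arrays left out. In rdr6-15 it was 46.9%, 77% with set B as control and 38.8% to 48% with single arrays left out. In dcl1-7 against set B it was 35.2%, 57.7% with set A as control and 26% to 36.2% with single arrays left out. In rdr6-15 leaf it was 0%, and 0.51% both with all 27 arrays and with array weights. In dcl1-7 leaf it was 5.1%, 9.69% with all 27 arrays, 10.8% without weak probe sets, 9.34% over the top 400 and 2.55% to 8.67% with single arrays left out. The comparison of dcl4-2 with rdr6-15 and the organ differences within mutants kept their counts within 1.5 times under every alternative run. Without the inflorescence arrays of high 3′ minus 5′ difference the share was 9.18% in dcl4-2, 60.7% in rdr6-15, 39.8% in dcl1-7 and 68.9% between dcl4-2 and rdr6-15.

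With set A as control, 10 named dcl1-7 differences changed sign, to -0.38 for THI2.1, -0.71 for AT1G44970, -0.84 for RXF26, -0.16 for AT5G44630, -1.23 for ATA27, -0.18 for AT4G23680, 0.12 for AT1G02813, 0.52 for AT1G24600, 0.27 for AT1G16705 and 1.09 for AT4G14270. The cause was not tested. Of 621 repeats for named genes, 543 kept direction and call and 68 lost the call.

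No paired analysis was possible because the labels give the groups no shared replicate numbers. The limits are 3 arrays a group, a choice that used the Col-0 arrays, and 2 Col-0 sets that differ.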
